A study of Rattus norvegicus with 10 samples.

Results

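The glutathione S-transferases described here were 10 genes of rat liver, each read by 1 probe set of the Rat Genome 230 2.0 array. A probe set was taken where its platform annotation named exactly 1 gene symbol and that symbol was Gsta1, Gsta4, Gstm1, Gstm2, Gstm3, Gstm4, Gstp1, Mgst1, Mgst2 or Mgst3. This gave 10 probe sets of the 31042 tested, which were 2 of the alpha class, 4 of the mu class, 1 of the pi class and 3 microsomal enzymes. The animals were 10 Harlan Sprague Dawley rats. The 5 HMB rats were fed 2-hydroxy-4-methoxybenzophenone (HMB, or oxybenzone, an ultraviolet filter of sunscreens) at 10000 ppm in the diet for 13 weeks, and the 5 Control rats had 0 ppm. All were kept on the NTP-2000 diet, 5 to a cage, and no sex, age, cage or array batch was given in the labels, so a cage shared by a group cannot be told apart from HMB. HMB replicate 1 was titled HMB but carried a dose label of 0 ppm. It was kept with the HMB rats, and results that rest on it are also given without it. Each array carried its own animal number, so p-values measure the spread between these animals.

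Glutathione S-transferases join the tripeptide glutathione to electrophilic compounds, so that drugs, their reactive metabolites and products of lipid peroxidation can be exported and broken down to mercapturates. The soluble alpha, mu and pi enzymes work as dimers, and alpha and mu subunits are abundant among the soluble proteins of the rat hepatocyte. Microsomal transferases are unrelated membrane proteins of the MAPEG superfamily, some of which also make leukotriene C4. Many transferase genes are known targets of the receptors CAR and PXR and of the transcription factor NRF2, which acts through antioxidant response elements. The comparison of HMB with Control rats addressed how liver genes differed after dietary HMB.

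None of the 10 genes passed the test. Values are log2 signals made by RMA, a method that normalizes arrays to each other and gives 1 value per probe set. A difference of 1 on this scale is a doubling, and all differences are HMB minus Control. In limma fitted over all probe sets, 0 of 10 members had a Benjamini-Hochberg adjusted p under 0.05, where 1.7% of all probe sets did (528 of 31042). Upward calls made up 0.705% of all probe sets and downward calls 0.995%, and the members had 0 of each. With 1 probe set per gene, 0 of 10 were called, against 1.72% of 14217 genes. At an unadjusted limma p under 0.05 there were 4 members, Gsta1, Gsta4, Gstm3 and Mgst3, against 24.1% of all probe sets and 24.9% of all genes. The HMB and Control values did not overlap for 2 members, Gstm3 and Mgst3, where 5.77% of all probe sets showed no overlap. The 10 differences ran from -0.39 for Gstm3 to 0.24 for Mgst3. Their median was 0.15, with 7 above 0 and 3 below, beside a median of 0.01 over all probe sets. Of the members, 9 lay in the brightest 25% of probe sets, where the median difference of all 7761 probe sets was -0.10 and 25.3% were above 0. Those 9 members had a median of 0.17, with 7 above 0 and 2 below. In that range 1.88% of probe sets were called and 7.14% did not overlap between groups, against 0 and 1 of the 9 members.

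**Figure D1:**
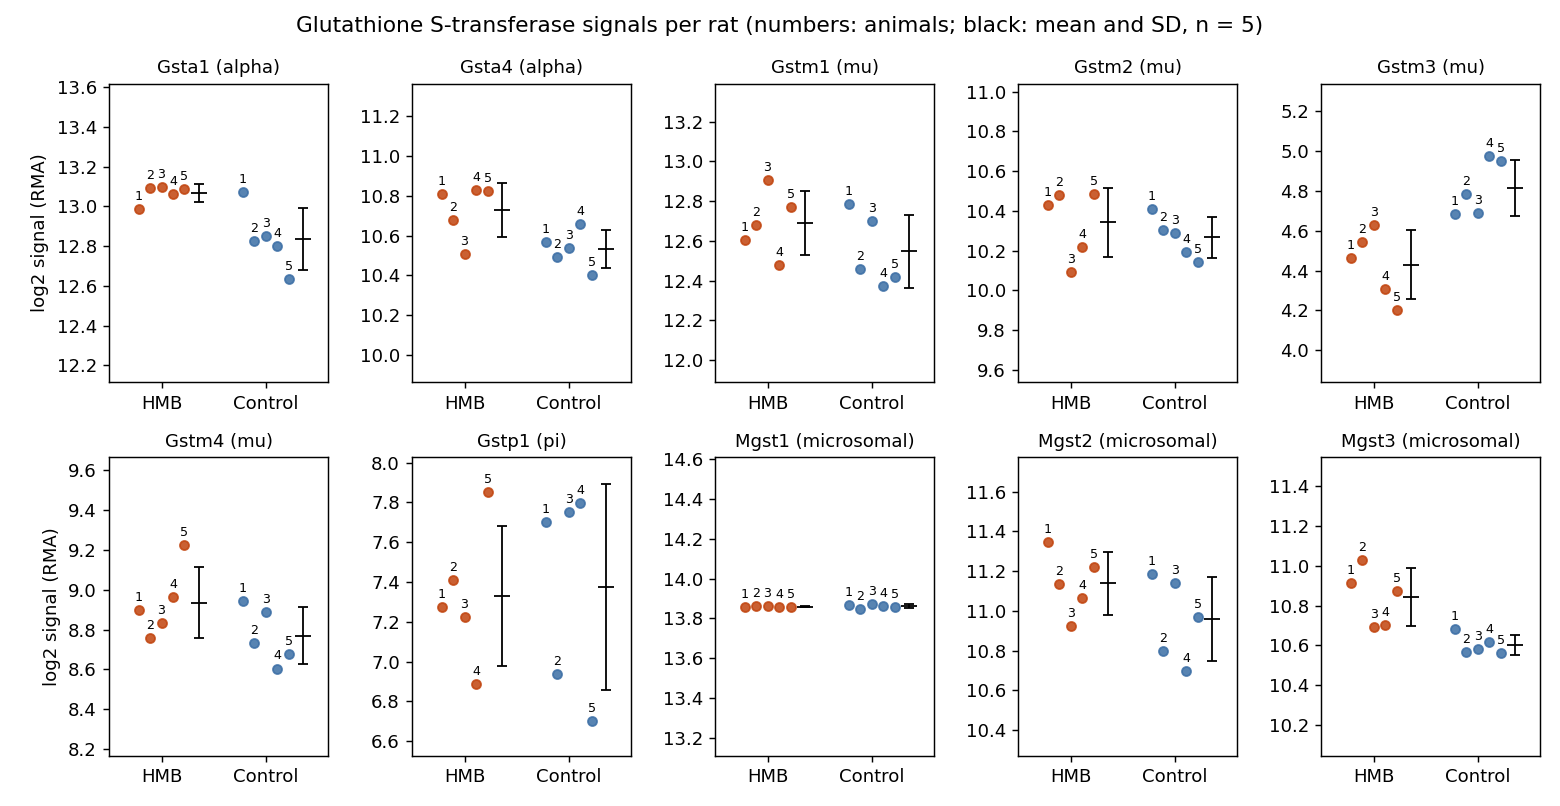
Log2 RMA signal of each rat (vertical axis, the same span of 1.5 in every panel) for the 10 genes, with HMB rats left and Control rats right, numbered by replicate. Black marks are means with SD, n = 5. Gstm3 and Mgst3 are the 2 genes whose groups do not overlap, and Mgst1 is flat at 13.86.

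The promoters of 4 genes are printed because most is said of these genes below: the mu genes Gstm3 and Gstm4, whose signals ran opposite to each other among animals, the alpha gene Gsta1, and the pi gene Gstp1, whose promoter held an AP-1 match. They come from RefSeq, build GRCr8, and run from 250 bases before to 50 after the start site. Of the 10 members, 9 had an entry. Capitals mark matches on either strand. The core of the antioxidant response element was searched as TGACNNNGC. The AP-1 site, bound by Jun and Fos proteins, was searched as TGAGTCA. The core of the xenobiotic response element, bound by the dioxin receptor, was searched as GCGTG. The TATA box was searched as TATAAA. The positions are chr9:31216483-31216782, minus strand for Gsta1, chr2:198300618-198300917, minus strand for Gstm3, chr2:198373334-198373633, minus strand for Gstm4, and chr1:210769656-210769955, minus strand for Gstp1.
Gsta1: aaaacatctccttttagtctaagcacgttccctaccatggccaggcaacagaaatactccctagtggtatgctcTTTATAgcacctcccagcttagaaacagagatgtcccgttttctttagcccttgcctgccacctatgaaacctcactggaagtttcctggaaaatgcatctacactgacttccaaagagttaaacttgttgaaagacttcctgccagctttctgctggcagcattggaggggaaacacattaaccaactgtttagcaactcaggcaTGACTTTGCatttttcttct
Gstm3: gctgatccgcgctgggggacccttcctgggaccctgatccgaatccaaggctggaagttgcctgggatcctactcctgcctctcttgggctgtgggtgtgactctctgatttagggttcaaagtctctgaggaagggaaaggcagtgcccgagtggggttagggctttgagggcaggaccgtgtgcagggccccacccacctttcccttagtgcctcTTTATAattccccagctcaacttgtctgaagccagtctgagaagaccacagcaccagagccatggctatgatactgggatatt
Gstm4: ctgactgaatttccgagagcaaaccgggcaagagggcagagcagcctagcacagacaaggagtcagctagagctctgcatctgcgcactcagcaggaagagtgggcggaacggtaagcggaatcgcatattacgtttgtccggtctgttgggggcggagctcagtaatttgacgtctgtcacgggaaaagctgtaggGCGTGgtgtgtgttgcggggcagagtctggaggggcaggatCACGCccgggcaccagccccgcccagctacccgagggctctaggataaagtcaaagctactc
Gstp1: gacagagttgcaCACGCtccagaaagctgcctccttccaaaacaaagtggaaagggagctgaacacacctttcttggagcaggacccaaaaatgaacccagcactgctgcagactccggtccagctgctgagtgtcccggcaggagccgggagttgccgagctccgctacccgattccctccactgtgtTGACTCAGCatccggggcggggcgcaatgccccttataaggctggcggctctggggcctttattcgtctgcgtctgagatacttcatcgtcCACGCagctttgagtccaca

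In Gstp1 an AP-1 match on the minus strand, at -61 to -55, lies inside an antioxidant response element match on the plus strand, at -61 to -53 from the start site. The other antioxidant response element match among the 9 promoters was in Gsta1, at 31 to 39 after the start. In all, 2 of 9 promoters held that core, against 12.1% of 33469 rat promoters, and 1 of 9 held the AP-1 letters, against 4.63%. The xenobiotic response element core was found in 4 of 9, namely Gsta4, Gstm4, Gstp1 and Mgst3, against 29.7%. A TATA box match was found in 3 of 9, Gsta1, Gstm1 and Gstm3, against 14.2%. It was on the plus strand in Gstm1, at -29 to -24. In Gstm3, at -33 to -28, and in Gsta1, at -176 to -171, it was on the minus strand. These matches describe letters in this window.

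Both alpha-class genes had higher mean signals in HMB rats, and neither passed the test. Gsta1, an alpha subunit that conjugates electrophiles and reduces organic hydroperoxides, had 12.99, 13.09, 13.10, 13.06 and 13.09 in HMB rats 1 to 5, against 13.07, 12.83, 12.85, 12.80 and 12.64 in Control rats 1 to 5. The HMB rats lay close together, and 4 of the 5 Control rats lay below all of them, while Control 1 lay among them. The mean was 13.07 ± 0.05 in HMB and 12.84 ± 0.16 in Control (SD, n = 5 each). The difference was 0.23 ± 0.09 (SE, limma adjusted p = 0.139), a fold of 1.17 with a 95% interval from 1.03 to 1.33.

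Gsta4, a subunit known for conjugating 4-hydroxynonenal, a product of lipid peroxidation, had 10.81, 10.68, 10.51, 10.83 and 10.82 in HMB rats, against 10.57, 10.49, 10.54, 10.66 and 10.40 in Control rats. In 4 of 5 HMB rats it was above every Control rat, and HMB 3 lay within the Control range. The difference was 0.20 ± 0.09 (SE, n = 5 per group, limma adjusted p = 0.189), a fold of 1.15 with a 95% interval from 1.01 to 1.30. With HMB replicate 1 counted as a Control it was 0.13, and without that rat 0.18. A further bright probe set, assigned by the annotation to 2 alpha genes at once and so left unnamed, was looked at after its values were seen. It averaged 13.06 ± 0.13 in HMB and 12.83 ± 0.08 in Control (SD, n = 5 each), 0.23 apart (limma adjusted p = 0.127).

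Among the mu-class genes, Gstm3 lay lower in HMB rats while Gstm1, Gstm2 and Gstm4 had means slightly above Control, and none of the 4 passed the test. Mu genes are close relatives in 1 cluster on chromosome 2. Probe sequences were not used here, so signal that a probe set may take from a related transcript was not tested. In bulk liver, fewer cells of a type and less RNA per cell cannot be told apart for any member.

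Gstm3, a mu subunit, had 4.46, 4.55, 4.63, 4.31 and 4.20 in HMB rats, against 4.68, 4.79, 4.69, 4.98 and 4.95 in Control rats. Every HMB rat lay below every Control rat, but only by 0.052 between HMB 3 and Control 1. The mean was 4.43 ± 0.17 in HMB and 4.82 ± 0.14 in Control (SD, n = 5 each). Its difference of -0.39 ± 0.10 (SE, limma adjusted p = 0.0651) corresponds to a fold of 0.76, with a 95% interval from 0.66 to 0.89. Gstm3 was the one member outside the brightest 25% of probe sets. It lay in the next 25%, where 37.3% of differences were above 0 and the median was -0.08. Of those probe sets 154 were called lower in HMB and 71 higher. Without Control replicate 1, where limma called 1653 probe sets against 528 with all rats, the Gstm3 difference was -0.42 and the limma adjusted p 0.0449. Over all 21 alternatives the difference ran from -0.44 to -0.31 and the adjusted p from 0.0449 to 0.413. Without HMB replicate 1 it was -0.40 (limma adjusted p = 0.0670), and with that rat counted as a Control it was -0.34 (limma adjusted p = 0.115).

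Gstm1, one of the main mu subunits of rat liver, had 12.61, 12.68, 12.91, 12.48 and 12.77 in HMB rats, against 12.78, 12.46, 12.70, 12.37 and 12.42 in Control rats. The groups overlapped over most of their range, with HMB 3 alone above all Control rats. The difference was 0.14 ± 0.11 (SE, limma adjusted p = 0.427, n = 5 each), and its fold interval ran from 0.94 to 1.30. Without HMB 3 the difference was 0.09.

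Gstm2, the other mu subunit long known from rat liver, had 10.43, 10.48, 10.09, 10.22 and 10.49 in HMB rats, against 10.41, 10.31, 10.29, 10.19 and 10.14 in Control rats. HMB 3 lay below every Control rat and 3 HMB rats lay above every one. The mean difference was 0.07 ± 0.10 (SE, n = 5 per group, limma adjusted p = 0.657). It lay between 0.04 without HMB 5 and 0.14 without HMB 3, and it was 0.03 with HMB replicate 1 counted as a Control. Gstm4 had 8.90, 8.76, 8.83, 8.96 and 9.23 in HMB rats, against 8.94, 8.73, 8.89, 8.60 and 8.68 in Control rats. HMB 5 stood highest, and 3 HMB rats lay within the Control range. Its difference was 0.17 ± 0.10 (SE, n = 5 per group, limma adjusted p = 0.333). Without HMB 5 it was 0.09. The upper bounds of the 95% fold intervals were 1.30 for Gstm1, 1.22 for Gstm2 and 1.31 for Gstm4, so larger folds fell outside the intervals for these probe sets.

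Gstp1, the pi-class enzyme, is known in rats for low levels in normal hepatocytes, for its presence in bile duct cells and for its use as a marker of preneoplastic liver foci. It varied more among animals than any other member. Signals were 7.28, 7.41, 7.22, 6.88 and 7.85 in HMB rats, against 7.70, 6.94, 7.75, 7.79 and 6.70 in Control rats. Control rats fell into a high trio, Control 1, 3 and 4, and a low pair, Control 2 and 5, and HMB 1 to 3 lay between these. The mean was 7.33 ± 0.35 in HMB and 7.38 ± 0.52 in Control (SD, n = 5 each). The difference of -0.05 ± 0.23 (SE, limma adjusted p = 0.917) had a fold interval from 0.69 to 1.36, the widest of the 10. Its sign changed after cyclic loess normalization, to 0.07, and after quantile normalization, to 0.09. Of 7 measured bile duct markers 0 were called by limma, where 1.72% of all genes were, with 0 at an unadjusted p under 0.05. Their summed signal on the log2 scale ran from 8.53 to 8.95 in HMB rats and from 8.46 to 8.88 in Control rats. Most of that sum came from 1 marker with a mean of 8.27 over the 10 rats. The other markers had means from 2.63 to 5.31.

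Of the microsomal enzymes, Mgst3 lay higher in every HMB rat, Mgst2 overlapped between the groups and Mgst1 was flat, with none passing the test. Mgst3, a microsomal enzyme with glutathione peroxidase and leukotriene C4 synthase activity, had 10.91, 11.03, 10.69, 10.70 and 10.87 in HMB rats, against 10.68, 10.57, 10.58, 10.62 and 10.56 in Control rats. The groups did not overlap, although HMB 3 and Control 1 were only 0.010 apart. The Control rats were tightly grouped, at 10.60 ± 0.05, and the HMB rats more spread, at 10.84 ± 0.14 (SD, n = 5 each). The difference of 0.24 ± 0.08 (SE, limma adjusted p = 0.119) was a fold of 1.18, with a 95% interval from 1.04 to 1.34. Without HMB replicate 1 it was 0.22 (limma adjusted p = 0.150). With that rat counted as a Control it was 0.17 (limma adjusted p = 0.300). With HMB 1 and 2 left out it was 0.15, and with HMB 3 to 5 left out 0.37.

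Mgst2, which also makes leukotriene C4, had 11.34, 11.13, 10.93, 11.06 and 11.22 in HMB rats, against 11.19, 10.80, 11.14, 10.70 and 10.97 in Control rats. Control 1, 3 and 5 lay within the HMB range and Control 2 and 4 below it. The difference was 0.18 ± 0.11 (SE, n = 5 per group, limma adjusted p = 0.342), with a fold interval from 0.96 to 1.34. HMB replicate 1, with the 0 ppm label, was the highest rat. The difference was 0.13 without it, 0.06 with it counted as a Control and 0.11 without Control 4.

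Mgst1, the abundant enzyme of the endoplasmic reticulum and outer mitochondrial membrane, read 13.86 in all 5 HMB rats and between 13.84 and 13.87 in Control rats. Its SD over the 10 arrays was 0.0077, and 0 of the 31042 probe sets had a smaller one, the median being 0.19. It ranked 18 by mean signal, near the highest mean on the arrays of 14.59, and probe sets at or above its level had a median SD of 0.0392. Whether the probes were saturated was not tested, and the flat reading bounds the signal of this probe set rather than the transcript. The difference was 0.00 ± 0.06 (SE, n = 5 per group, limma adjusted p = 0.988), the SE being set mainly by limma's prior.

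**Figure D2:**
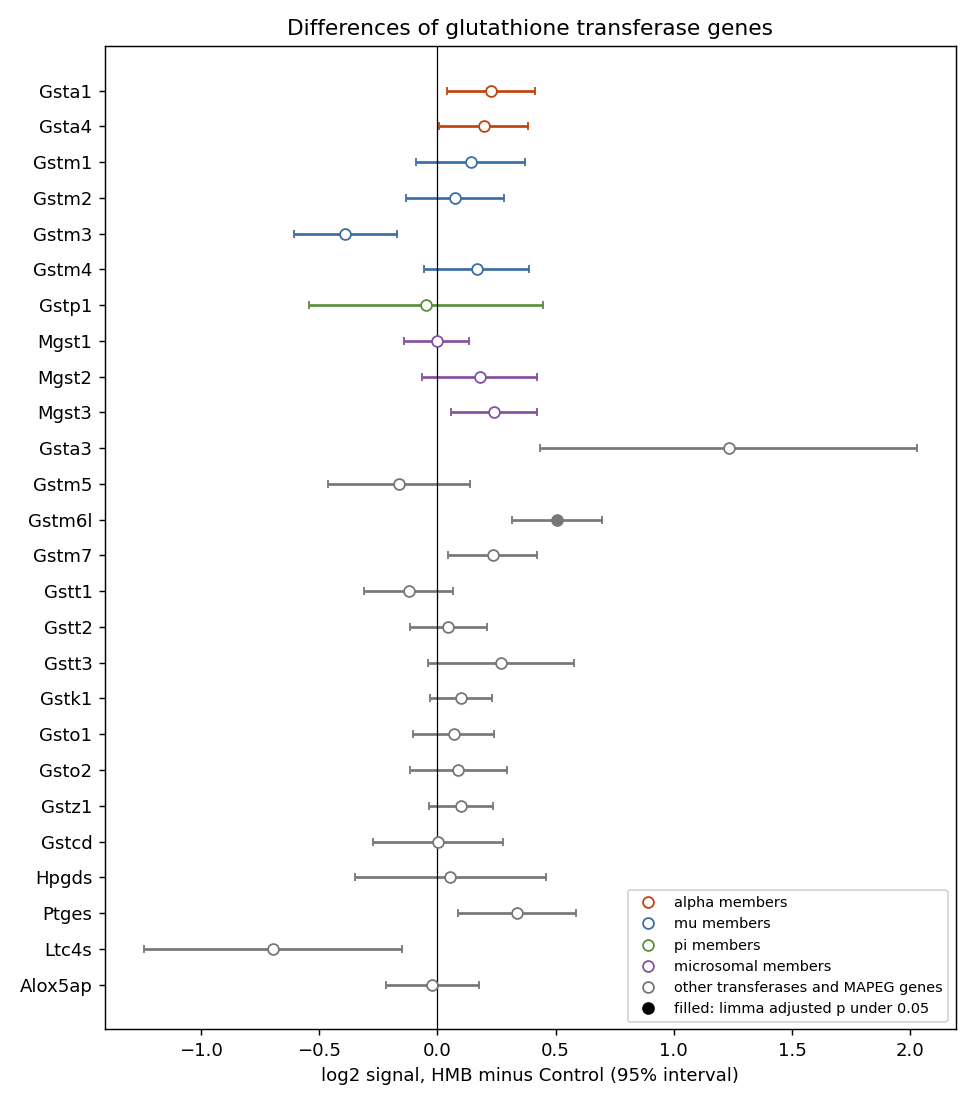
Log2 signal difference, HMB minus Control, with 95% intervals (horizontal axis) for the 10 members by class and for 16 other glutathione transferase and MAPEG genes. Gstm6l, at 0.51, is the one filled point, with a limma adjusted p under 0.05, and Gsta3 has the largest difference, 1.23.

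Among 16 measured genes of other transferases and MAPEG relatives, 1 rose, Gstm6l, none fell and 15 did not pass. The share called over all genes was 0.76% upward and 0.957% downward. Their median difference was 0.08, beside -0.02 over all genes, with 12 above 0 and 4 below. Gstm6l, a mu-like gene of the same cluster, had 3.07, 3.10, 2.81, 3.28 and 3.20 in HMB rats, against 2.53, 2.58, 2.54, 2.67 and 2.60 in Control rats. All HMB rats lay above all Control rats, at a dim level. The rise was 0.51 ± 0.09 (SE, n = 5 per group, limma adjusted p = 0.0296 over genes). It belongs to the dimmest 25% of probe sets, where 74.5% of differences were above 0 and the median was 0.09. The limma adjusted p was 0.0662 after cyclic loess normalization, 0.0811 with HMB replicate 1 counted as a Control and 0.0329 without that rat, and it passed in 9 of 21 alternatives, where it ran from 0.0184 to 0.215.

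Gsta3, an alpha subunit, had 8.58, 8.81, 8.80, 8.87 and 9.23 in HMB rats, against 8.74, 6.90, 8.61, 7.08 and 6.81 in Control rats. The HMB rats were all high, and among Control rats 1 and 3 were as high while 2, 4 and 5 lay well below. The difference was 1.23 ± 0.37 (SE, n = 5 per group, limma adjusted p = 0.0856). Without Control replicate 1, where limma called 1014 genes against 244 with all rats, it was 1.51 (limma adjusted p = 0.0265). Gstm7 differed by 0.23, Gstm5 by -0.16, Gstk1, a mitochondrial and peroxisomal transferase, by 0.10, Ptges, the microsomal prostaglandin E synthase, by 0.34 and Ltc4s, leukotriene C4 synthase, by -0.69 (limma adjusted p from 0.112 to 0.475 for these 5). Without Control replicate 1 Ptges was at 0.45 (limma adjusted p = 0.0178), and without HMB replicate 4 Gstm5 was at -0.04. The HMB and Control values of Gstk1 did not overlap, as for Gstm6l, against 6.12% of all genes.

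Along the mu cluster, in the order of the RefSeq table of GRCr8, the log2 differences were -0.16 for Gstm5, 0.51 for Gstm6l, 0.23 for Gstm7, -0.39 for Gstm3, 0.07 for Gstm2, 0.14 for Gstm1 and 0.17 for Gstm4. Gstm6 and Gstm3l1, between Gstm7 and Gstm3, were not analysed here. Signs were opposite between Gstm5 and Gstm6l, between Gstm3 and Gstm2, and between Gstm7 and Gstm3, across the genes not analysed. They were the same between the other measured neighbours. Only Gstm6l was called, and the signs of Gstm5 and Gstm2 each changed in 1 alternative.

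With all rats, limma made no calls among genes for the supply of glutathione or for the later steps of the pathway, but Lap3 and Abcc3 passed with 1 rat left out. Over all genes 1.72% were called and 24.9% had an unadjusted p under 0.05, so a list of 7 to 18 genes would mostly hold no call. Of 9 measured genes of glutathione synthesis and reduction 0 were called, with 0 at an unadjusted p under 0.05 and a median of 0.00. The smallest p-values belonged to Gss, glutathione synthetase, at 0.10, and Cbs, which feeds cysteine synthesis, at -0.18 (-0.10 without HMB 4, -0.27 without HMB 1). Of 18 genes of conjugate and glutathione breakdown 0 were called, with 3 at an unadjusted p under 0.05 and a median of 0.07. Lap3, an aminopeptidase, differed by 0.51 (limma adjusted p = 0.0916). Without HMB replicate 1, the rat with the 0 ppm label, Lap3 was higher in HMB by 0.63 (limma adjusted p = 0.0384), and with that rat counted as a Control also by 0.63 (limma adjusted p = 0.0531). Dpep1, a dipeptidase that cleaves cysteinylglycine, differed by 0.25 on its brightest probe set (limma adjusted p = 0.0927), by 0.15 on its most variable one (limma adjusted p = 0.408) and by 0.11 over the mean of its probe sets (limma adjusted p = 0.297). Of 7 conjugate exporters 0 were called, with 1 at an unadjusted p under 0.05 and a median of 0.06. Abcc3, an exporter to blood, differed by 1.18 (limma adjusted p = 0.0927), with Control 3 at 5.93 inside the HMB range of 5.89 to 6.46, Control 1 just below it and the other Control rats between 3.95 and 5.00. Without Control replicate 1, where limma called 1014 genes against 244 with all rats, it was 1.41 (limma adjusted p = 0.0398). Abcc2, the exporter to bile, differed by -0.23 (limma adjusted p = 0.231).

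**Figure D3:**
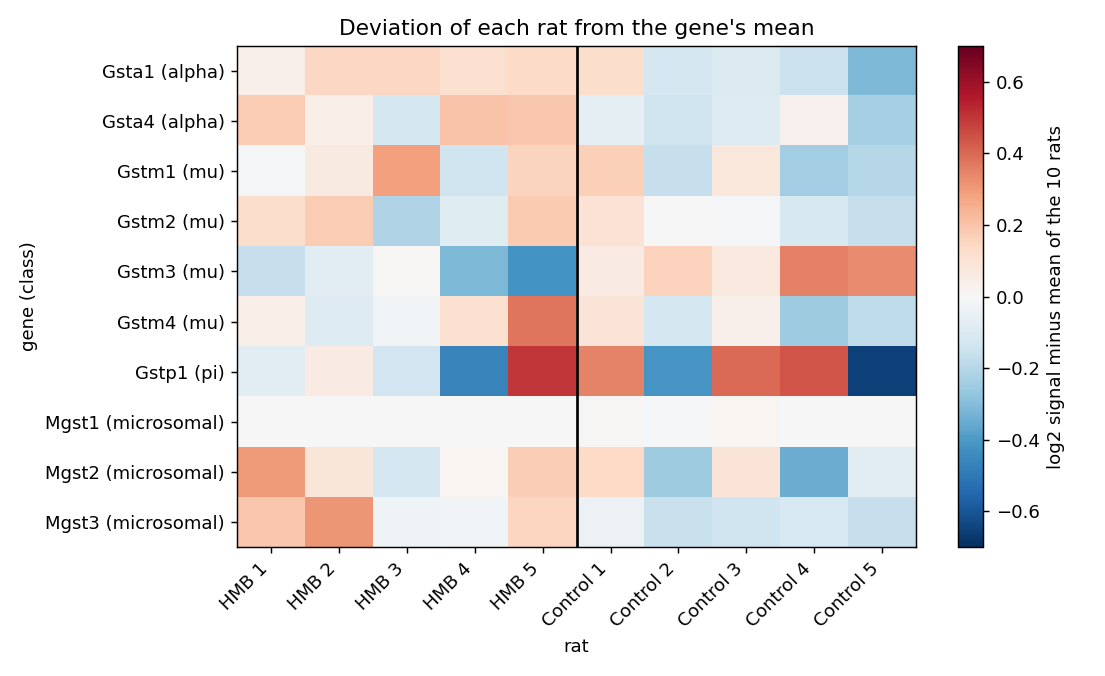
Heat map of the log2 signal of each rat minus the mean of the 10 rats (colour), with genes in rows and HMB rats left of the line. Gstm3 is below its mean in 4 of 5 HMB rats and above it in every Control rat, and Control 1 and Control 3 stand above Control 2 and Control 4 in Gstm1, Gstm4 and Mgst2.

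Members also varied among animals within each group. In 5 of the 10 members, Gsta1, Gstm1, Gstm4, Mgst1 and Mgst2, Control 1 and Control 3 held the 2 highest Control values. The Control values of Mgst1 spanned only 0.029. The same 2 rats were highest for Gsta3 and Abcc3, the only other genes examined for it. The share of all probe sets with this order is not given here, so it is not shown to be particular to the members. Control 1 was the highest Control rat in 6 members and Control 5 the lowest in 5. Among HMB rats, HMB 3 was highest in 4 members and lowest in 4 others. The SD was larger in HMB for 5 members and larger in Control for the other 5.

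Deviations from the group means were correlated over the 10 animals for all 45 pairs of members. Pearson's r was above 0 in 34 pairs and below 0 in 11, with a median of 0.29. One pair passed adjustment over the 45. Gstm3 and Gstm4 ran opposite to each other, with r = -0.92 (exact two-sided permutation p = 0.000764 over 14400 orders within groups, adjusted p = 0.0344) and Spearman's rho = -0.92 (exact permutation p = 0.00194, adjusted p = 0.0875). The correlation was -0.90 among HMB rats and -0.95 among Control rats, and -0.92 without HMB 3 and HMB 5, the 2 rats farthest from the median deviation of Gstm3. With each rat left out in turn r stayed between -0.94 and -0.89, and the adjusted p ran from 0.0625 to 0.359. In quantile-normalized values it was -0.87 (exact permutation, adjusted p = 0.106). The labels gave no array batch within which to repeat it.

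The next pairs did not pass. Gstm2 and Mgst3 had r = 0.84 (exact permutation p = 0.0114, adjusted p = 0.256) and rho = 0.85 (exact permutation p = 0.0108, adjusted p = 0.227), and r was 0.78 without HMB 3 and Control 5. Gsta1 and Gstm1 had r = 0.67 (exact permutation p = 0.0231, adjusted p = 0.347) and rho = 0.77 (exact permutation p = 0.0151, adjusted p = 0.227), and r was 0.60 without Control 1 and Control 5.

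**Figure D4:**
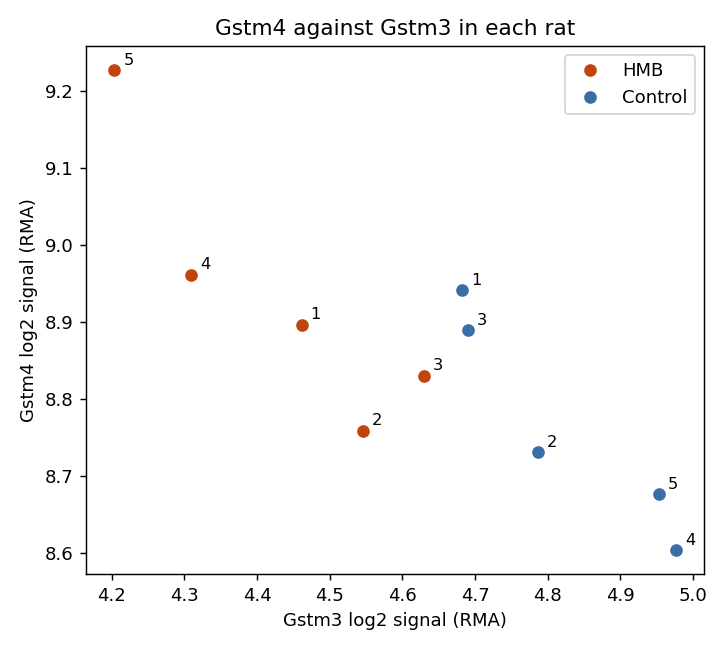
Log2 signal of Gstm4 (vertical axis) against Gstm3 (horizontal axis) in each rat, HMB and Control, numbered by replicate. Within each group Gstm4 tends to be higher where Gstm3 is lower, with r of -0.90 in HMB and -0.95 in Control, and the HMB rats lie left of the Control rats.

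For 1 member per class, the 3 genes with the most similar deviations over the 10 animals were sought among 14207 genes that are not members. They were Dpysl4, Clec3b and Nefm for Gsta1 (r from 0.95 to 0.97), Esyt3, Snf8 and Necab1 for Gstm1 (r from 0.93 to 0.96), Fam167b, Spata9 and Acer2 for Gstp1 (r from 0.95 to 0.96), and Zfp40, Cd33 and Dmkn for Mgst1 (r from 0.91 to 0.94). For the flat Mgst1 probe set, r among HMB rats alone was 0.33 with Cd33 and 0.26 with Dmkn, against 0.99 and 0.93 among Control rats. These are the highest values of a search over all genes with 10 animals and are given as a description.

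The arrays of HMB and Control rats also differed as a whole. The spread of log2 values within an array, as their SD, was 2.41 ± 0.0256 in HMB and 2.48 ± 0.0235 in Control (SD, n = 5 each, exact two-sided permutation p = 0.00794, adjusted p = 0.0397 over 5 measures). The signal of poly-A transcripts added to the RNA, minus that of hybridisation controls, was -1.73 ± 0.225 in HMB and -2.04 ± 0.106 in Control (exact two-sided permutation p = 0.0238, adjusted p = 0.0529). With this signal as a covariate the difference was -0.34 for Gstm3 (limma adjusted p = 0.379), 0.34 for Mgst3 (limma adjusted p = 0.291) and 0.24 for Gsta1 (limma adjusted p = 0.447). Differences of other genes also moved with the covariate, to 0.05 for Gstm1, 0.06 for Gstm4, 0.16 for Gstm2, 0.27 for Mgst2, -0.26 for Gstp1, -0.24 for Ltc4s and -0.04 for Cbs. The 3' minus 5' signal of GAPDH was 1.31, 1.38, 1.97, 2.09 and 1.90 in HMB rats 1 to 5 and ran from 1.38 to 1.77 in Control. That of beta-actin was 3.16, 3.18, 3.62, 3.96 and 3.58 in HMB rats 1 to 5 and ran from 3.25 to 3.64 in Control. HMB 1 and 2 thus stood below HMB 3 to 5 on both, and Mgst3, at 10.91 and 11.03 in HMB 1 and 2, lay higher there than in HMB 3 to 5. Of 9 measured hepatocyte markers 0 were called by limma, with 1 at an unadjusted p under 0.05, and their summed log2 signal ran from 16.57 to 16.64 in HMB and from 16.60 to 16.69 in Control. No marker was called among 8 of Kupffer cells, 8 of endothelium, 10 of stellate cells, 7 of lymphocytes or 6 of red cells, with 0, 1, 3, 3 and 3 of them at an unadjusted limma p under 0.05. The shares over all genes were 1.72% called and 24.9% at an unadjusted p under 0.05. Endothelial markers had lower means in HMB for 8 of 8 (median difference -0.12), with a summed signal from 10.60 to 11.29 in HMB and from 10.36 to 11.75 in Control. Red cell markers had higher means for 6 of 6 (median 0.28, summed signal 10.50 to 11.14 in HMB and 9.89 to 11.21 in Control), and lymphocyte markers for 6 of 7 (median 0.24, summed signal 6.27 to 6.57 in HMB and 6.14 to 6.43 in Control). The red cell sum came almost wholly from 1 marker with a mean of 10.66, beside 2.60 to 4.25 for the others. In the dimmest 25% of all probe sets 74.5% of differences were above 0, and in the next 25% 72.4% were (medians 0.09 and 0.11). The shares were 37.3% in the 25% above these and 25.3% in the brightest 25% (medians -0.08 and -0.10). All lymphocyte and most red cell markers lay in the dimmer 50%, and all endothelial markers in the brighter 50%. Whether these lists differed beyond that trend was not tested. Kupffer markers went both ways, with 4 above 0 and 4 below, and stellate markers had 7 of 10 below 0. The part of these features in the members' values was not tested.

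**Figure D5:**
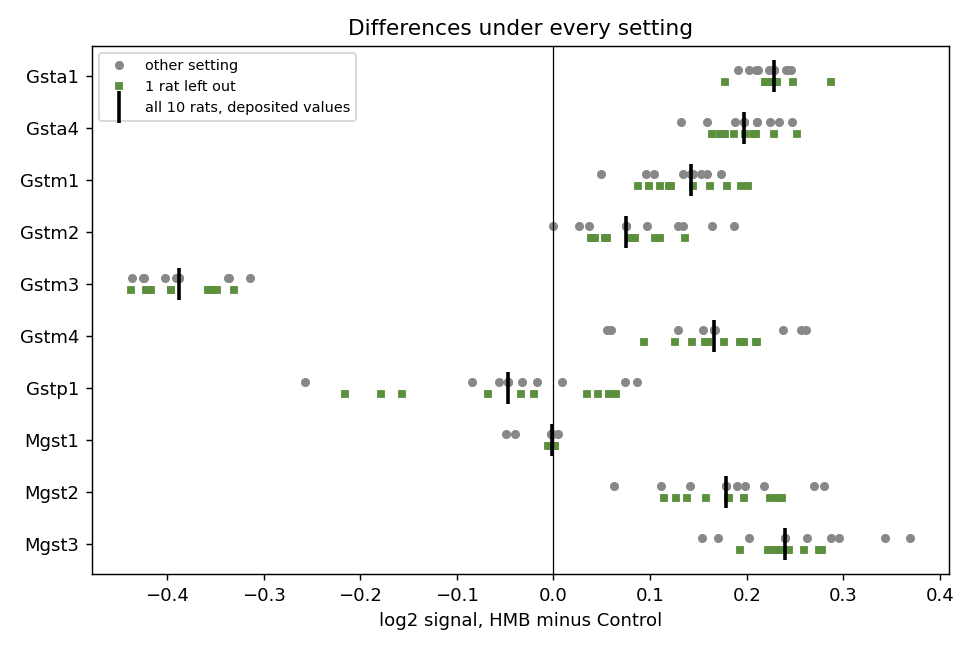
Log2 signal difference, HMB minus Control (horizontal axis), of the 10 members with all rats and the deposited values (bar), with 1 rat left out (squares) and under other settings (circles). Gstm3 stays between -0.44 and -0.31 and Mgst3 between 0.15 and 0.37, while Gstp1 runs from -0.26 to 0.09.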

How the data were processed

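Liver RNA of 10 rats, 5 HMB and 5 Control, was hybridised to 1 array per rat with a biotin label. The log2 values were deposited by the authors after RMA, per the submitters' processing notes. Its version and settings are not given in the sources used here. No detection calls or raw intensities were used, and the number of arrays limits the precision. Groups follow the titles, and replicate numbers follow accession order. Tests covered 31042 probe sets, without 57 array controls. Of these 20826 named 1 gene, 436 several and 9780 none. Those with 1 symbol gave 14217 genes, each read by its brightest probe set, and identifiers of 20758 matched the RefSeq table of GRCr8. No 2 arrays were identical in 45 pairs.

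Tests used limma 3.58.1 in R 4.3.3 (lmFit, eBayes, 8 residual degrees of freedom, priors of 4.93 for probe sets and 4.04 for genes), adjustment by Benjamini-Hochberg across every probe set or gene, a threshold of 0.05 and 95% intervals from the moderated fit. Members were tested over probe sets, other genes over genes. The step was tested on simulated data. Array measures and correlations used exact permutation tests in Python 3.11.15 with scipy 1.17.1, and figures matplotlib 3.10.9. Poly-A controls were 24 probe sets and hybridisation controls 18. The members and gene lists were chosen with earlier results of these data known. Named genes were all members, genes of the transferase list, the 2 smallest p-values of each other pathway list and 3 most similar genes for 4 members, and cell type lists are given by counts. Alternatives were other scalings, removal of the dimmest 25% or 50%, weighted arrays, a prior with a robust trend, the poly-A covariate, the dose label of HMB 1, other probe set choices, updated symbols and each rat left out. Leaving out HMB 1 and 2 or HMB 3 to 5, and the other scalings and left-out rats for correlations, were chosen after seeing the data.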

Additional observations from a re-analysis of the deposited data

Results flagged for a closer look

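In 56 groups of 5 rats examined, 2 held 1 rat far from the other 4, and chance flags about 1 group in 20. For Ltc4s, leukotriene C4 synthase, HMB 5 was the lowest HMB rat at 5.72, with the next at 6.50. For Gss, glutathione synthetase, HMB 1 was the lowest at 7.68, with the next at 7.79. No member gave such a value in either group.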

How the results depend on the processing

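No member probe set was called under the alternatives run except without Control 1, where Gstm3 was. The count of member probe sets changed ran from 0 to 1 with rats left out. For member genes it ran from 0 to 2, the 2 being Gsta1 and Gstm3 without Control 1, and it was 1, Gstm3, with array weights. Removal of the dimmest 50% of genes left 9 members to test, without Gstm3. Over all genes limma called 1014 without Control 1, 659 with array weights and 353 without HMB 1, against 244 with all rats. For other glutathione transferase and pathway genes the count of called genes, 1 with all rats, was 0 under cyclic loess, quantile normalization, the poly-A covariate, HMB replicate 1 counted as a Control and HMB 3 to 5 left out, and 2 with HMB 1 and 2 left out. It was also 0 under both filters on mean level, which removed Gstm6l before testing. With 1 rat left out it ran from 0 to 4, with 4 without Control 1 (Abcc3, Gsta3, Gstm6l and Ptges) and 2 without HMB 1 (Gstm6l and Lap3), and it was 0 without Control 2 to 5 or HMB 2, 4 or 5. At probe set level limma called 1653 of all probe sets without Control 1 and 0 without Control 2, Control 4, Control 5 or HMB 4, with between 5928 and 6558 at an unadjusted p under 0.05 in those 4, against 528 with all rats. That count was 125 under cyclic loess, 106 under quantile normalization, 925 with array weights, 2094 with HMB 1 and 2 left out, and 0 with HMB 3 to 5 left out (3276 at an unadjusted p under 0.05) or with the poly-A covariate (3806). The count of member pairs correlated was 0 under quantile normalization and 0 to 0 with rats left out, where fewer orders exist.

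Some differences changed sign. Gstp1 was at 0.074 under cyclic loess, 0.086 under quantile normalization, 0.0092 with array weights and -0.22 to 0.064 with rats left out (0.034, 0.046 and 0.058 without Control 1, 3 and 4, and 0.064 without HMB 4). Mgst1 was at 0.0048 under quantile normalization, and at 0.000047 without Control 1 and 0.0012 without Control 3, within -0.0060 to 0.0012 for rats left out. Gstm2 was at -0.00052 with HMB 1 and 2 left out. Gstm5 was at 0.069 and Cbs at 0.048 with HMB 3 to 5 left out. The cause was not tested. No paired analysis was possible because replicate numbers follow accession order and pair no animals.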
